A study of Mus musculus with 26 samples.

Results

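The effect of ACKR2 loss on gene expression was compared between bone marrow monocytes and MHCII negative lung macrophages, by setting the difference between ACKR2-/- and WT samples in the first cell type against the same difference in the second. The comparison used 18 of the 26 samples of the series, 8 of monocytes and 10 of lung macrophages, and the 50104 genes that both count tables list, of which 17428 had enough reads to be tested in a joint fit and 11984 had enough reads in each table on its own. The groups were WT monocytes and ACKR2-/- monocytes, with 4 samples each, and WT lung macrophages and ACKR2-/- lung macrophages, with 5 samples each. All mice were naive females, 8 to 10 weeks old where the methods give no other age. WT mice were C57BL/6J animals that were bought, whereas ACKR2-/- mice were bred as a homozygous colony, so the deletion cannot be told apart from any other difference between the 2 sources of mice. Each monocyte sample held sorted cells of 5 mice, and how many mice went into a lung sample is not stated by the labels or methods. Cell type and count table also go together, because the counts of each cell type come in a table of its own. Whether the cell types were sequenced together is not stated.

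ACKR2 is an atypical chemokine receptor, a receptor that clears inflammatory CC chemokines from its surroundings and does not signal through G proteins. Monocytes leave the bone marrow through chemokine receptors such as CCR2, and in tissues such as the lung some of them mature into macrophages between the airways and vessels. T cells and NK cells are lymphocytes with their own receptors, kinases and adaptor proteins, which textbooks place outside both of these cell types.

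The libraries held between 15450670 and 19218213 reads on genes in monocytes and between 19950019 and 29770252 in lung macrophages, so that 3 reads were worth 0.158 to 0.196 CPM (reads scaled to a common library size) in the first and 0.104 to 0.162 in the second. The level of Ly6c2, which encodes a surface protein of classical monocytes, was 3283 to 6520 CPM in monocytes and 7.81 to 111 CPM in lung samples. Adgre1, which encodes F4/80, was at 34.9 to 112 CPM in monocytes and at 271 to 684 CPM in lung samples. The name lung macrophages follows the gate. Summed nonclassical monocyte genes were at 6363, 6898, 2106, 7314 and 7692 CPM in WT and 5537 to 9955 CPM in ACKR2-/- lung samples. Summed interstitial macrophage genes were at 3813, 2610, 15656, 2554 and 3771 CPM in WT and 1648 to 3440 CPM in ACKR2-/- ones. Only in WT replicate 3 was the second sum larger. Which cells gave these sums was not tested. Transcripts of other lung cells were present as well, since Sftpc, a surfactant gene of the alveolar epithelium, ranged from 197 to 10700 CPM in lung samples and did not pass 0.0654 CPM in monocytes. Monocyte samples held many transcripts of neutrophil genes. Their summed level was 31117 to 74388 CPM in WT and 45584, 49706, 15187 and 18729 CPM in ACKR2-/- monocytes. That of classical monocyte genes was 60408 to 73097 CPM in WT and 32836 to 77007 CPM in ACKR2-/- monocytes. Of 12 tested neutrophil genes, 0 had a positive log2 effect in monocytes (median -0.53) and 0 were called. The sample labelled lung WT replicate 3 stood apart, as did the library labelled lung WT replicate 5 and ACKR2-/- lung replicate 4 in another way. The summed level of lung epithelium genes was 489 and 319 CPM in the last 2 against 6085 to 20868 CPM in the other 8 lung samples, that of fibroblast genes 240 and 151 CPM against 545 to 1970 CPM, and that of endothelial genes 138 and 154 CPM against 382 to 1178 CPM. In lung WT replicate 3 the level of H2-Ab1, an MHC class II gene whose product the gate was meant to leave out, was 22259 CPM against 556 to 1820 CPM in the other WT lung samples.

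The targeted gene, Ackr2 (ENSMUSG00000044534, chromosome 9, 121898355 to 121911074, plus strand, GRCm38), had 0 reads in 7 of the 8 monocyte samples and 2 reads in WT replicate 3. In WT lung samples 469, 436, 150, 372 and 0 reads were counted, and in ACKR2-/- lung samples 50, 38, 25, 7 and 7. The library labelled lung WT replicate 5 therefore held no Ackr2 read, and the other 4 WT lung samples lay above all ACKR2-/- lung samples. The genotypes differed in lung macrophages in an exact two-sided permutation test on CPM (p = 0.0476, where 0.00794 is the smallest this design allows). For the targeted gene Ackr2, exact permutation p in lung macrophages was between 0.0635 and 0.0794 when any 1 ACKR2-/- lung sample was left out. With no Ackr2 read, the label of lung WT replicate 5 may be wrong, and every lung effect below includes this library. It also had the lowest summed level of endothelial genes. In replicate order these sums were 1178, 901, 382, 594 and 138 CPM in WT lung samples. In ACKR2-/- lung samples they were 1025, 924, 517, 154 and 392 CPM. The part of endothelial content in the Ackr2 reads was not tested. In lung WT replicate 5 the level of Wdfy1, a gene described below, was 14.2 CPM. This was within the 8.4 to 14.5 CPM of the other WT lung samples and below the 24.9 CPM of the lowest ACKR2-/- one. In monocytes Ackr2 was at or below the level of 3 reads in every sample, and no difference was detectable (exact permutation p = 1).

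The genotype effect differed between the cell types for 6 genes. The genes Skap1, Trbc2, Gimap4, Igkv14-126 and Igkv8-27 had a more positive effect in monocytes than in lung macrophages, and Capn1 had a more negative effect. Calls needed an adjusted p below 0.05 in the quasi-likelihood test of edgeR together with an absolute log2 value above 0.5. The 5 genes with a positive difference are 0.0287% of the 17428 tested genes and the gene with a negative difference 0.00574%. An unadjusted p under 0.05 for the difference was found for 1107 genes. These calls lay close to the threshold: with 1 of WT monocyte replicates 2, 3 or 4, ACKR2-/- monocyte replicate 1, WT lung replicate 1 or ACKR2-/- lung replicates 3 or 5 left out, 0 genes were called, whereas 15 were called without the library labelled lung WT replicate 5 or without ACKR2-/- lung replicate 4. DESeq2 called 91 genes, these 6 among them, and limma-voom 0.

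Skap1 encodes an adaptor protein that links the T cell receptor to cell adhesion. Its level in WT monocytes was 0.131, 0.188, 0.224 and 0.056 CPM, and in ACKR2-/- monocytes 10.1, 4.85, 10.1 and 10.1 CPM. In lung macrophages it was 32.7, 22.3, 18, 22.2 and 11.5 CPM in WT samples and 71.3, 77.4, 33.2, 11.4 and 41.1 CPM in ACKR2-/- samples. The genotypes did not overlap in monocytes and did overlap in lung macrophages, where ACKR2-/- replicate 4 lay just below the lowest WT sample. The log2 effect was 5.82 ± 0.64 (SE) in monocytes and 1.14 ± 0.39 in lung macrophages, a difference of 4.69 ± 0.75 (edgeR adjusted p = 0.0391).

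Trbc2 encodes a constant region of the T cell receptor beta chain. It measured 0.851, 0.377, 0.504 and 0.392 CPM in WT monocytes and 17.4, 11.5, 18.9 and 23.4 CPM in ACKR2-/- monocytes. In lung macrophages the range was 11.5 to 60.6 CPM in WT samples, with a median of 27.9 CPM, and 11.9 to 72.5 CPM in ACKR2-/- samples, with a median of 63.2 CPM. The gene thus stood far apart between genotypes in monocytes and overlapped over most of its range in the lung. The difference of the log2 effects was 4.37 ± 0.72 (edgeR adjusted p = 0.0391). Trbc1 and Trbc2 are near-identical copies, between which reads may be divided.

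Gimap4 encodes a GTPase of lymphocytes that takes part in their survival. In WT monocytes its level was 0.851, 0.879, 0.728 and 1.46 CPM and in ACKR2-/- monocytes 26.9, 14, 28.4 and 28.7 CPM. In the lung it was 136, 82.8, 133, 88 and 41.7 CPM in WT and 274, 242, 136, 38.7 and 96.4 CPM in ACKR2-/- samples, which overlapped. The log2 effects of 4.63 ± 0.57 and 0.71 ± 0.41 differed by 3.93 ± 0.68 (edgeR adjusted p = 0.0461).

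Igkv14-126 and Igkv8-27 are variable segments of the immunoglobulin kappa light chain, which B cells rearrange and plasma cells transcribe at high levels. Igkv14-126 had 5, 0, 2 and 0 reads in WT monocytes and 437, 805, 79 and 306 reads in ACKR2-/- monocytes, a ratio of 212 after scaling for depth with a 95% exact interval of 103 to 528 for counting error only. Igkv8-27 had 1 read in the 4 WT monocyte samples together and 332, 15, 410 and 39 reads in the ACKR2-/- ones. In lung macrophages both segments were present in every sample, at 0.297 to 12.4 CPM in WT and 0.525 to 4.1 CPM in ACKR2-/- samples, and the genotypes overlapped. Their edgeR adjusted p for the difference was 0.0303 and 0.0391. For Igkv8-27 the ratio of summed reads in monocytes was 726 with an interval of 130 to 28712. Fitted fold changes of segments with so few WT reads depend on the prior count of the fit, and segments with near-identical copies may share reads.

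**Figure D1:**
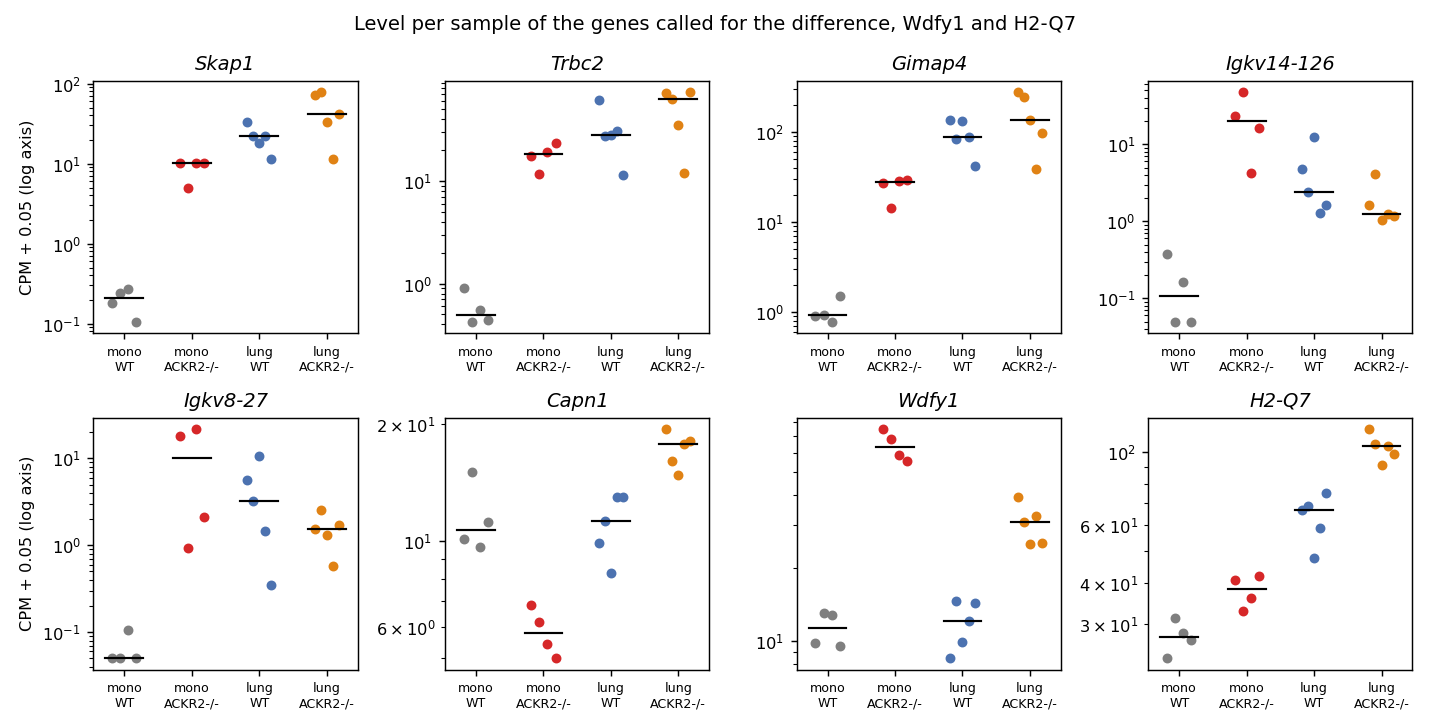
Level per sample of the 6 genes called for the difference, and of Wdfy1 and H2-Q7. Points are samples in CPM with 0.05 added, on a log axis that differs between panels, horizontal lines are medians, and the groups are WT and ACKR2-/- monocytes (4 samples each) and WT and ACKR2-/- lung macrophages (5 samples each). The lymphocyte genes are near 0 in WT monocytes alone, whereas Capn1 lies lower in ACKR2-/- monocytes and higher in ACKR2-/- lung macrophages.

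The size of these differences depended on the scale. On the log2 scale Skap1, Trbc2 and Gimap4 changed more in monocytes, yet the increase in CPM was no larger there. Skap1 was higher in ACKR2-/- samples by 8.63 ± 1.31 CPM (SE of the difference of means) in monocytes and by 25.6 ± 12.7 CPM in lung macrophages. For Gimap4 these increments were 23.5 ± 3.52 and 61 ± 47.6 CPM, and for Trbc2 17.3 ± 2.45 and 19.4 ± 14.4 CPM. The increment in monocytes minus that in the lung was therefore negative for all 3 genes, at -16.9 ± 12.8 (Skap1), -37.5 ± 47.7 (Gimap4) and -2.13 ± 14.6 CPM (Trbc2), and for the last 2 values the SE was larger than the value. For Igkv14-126 it was 25.3 ± 9.28 CPM and for Igkv8-27 13.3 ± 5.66 CPM, of the same sign as on the log2 scale. Increments in CPM were not tested across genes.

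Capn1 encodes the large subunit of calpain-1, a protease that is switched on by calcium, and lies on chromosome 19 (5988546 to 6015825, minus strand, GRCm38). In WT monocytes it measured 10.1, 15, 9.64 and 11.1 CPM and in ACKR2-/- monocytes 6.8, 6.14, 5.39 and 4.94 CPM. In WT lung macrophages it measured 9.86, 11.2, 8.23, 12.9 and 13 CPM and in ACKR2-/- lung macrophages 19.4, 16.1, 14.8, 17.8 and 18.1 CPM. The genotypes overlapped in neither cell type and stood in opposite order, and WT levels were alike in both. The log2 effect was -0.98 ± 0.21 in monocytes (edgeR adjusted p = 0.0408) and 0.64 ± 0.18 in lung macrophages (adjusted p = 0.474), and the difference was -1.62 ± 0.27 (adjusted p = 0.0436). On the CPM scale the sign held, with increments of -5.65 ± 1.29 and 6.18 ± 1.22 CPM. The call changed with single libraries: the adjusted p ranged from 0.0257 to 0.155 when each of the 18 samples was left out in turn and stayed under 0.05 in 2 of the 18 cases. Gm10814 lies on the opposite strand within the same interval, and without strand information its reads cannot be told apart from those of Capn1.

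Capn1 was also the only gene that met the rule for an opposite response, which asked for a called difference and an unadjusted p under 0.05 with opposite signs in the 2 cell types (0.00834% of the 11984 genes kept in each table). By unadjusted p alone, 685 of the 11984 genes had p under 0.05 in monocytes and 735 in lung macrophages. How many of them coincide by chance was not tested. In both cell types 66 genes had p under 0.05, of which 47 had the same sign and 19 had opposite signs. Of these, 13 were lower in monocytes and higher in lung macrophages of ACKR2-/- mice, such as Fcgr4, an activating Fc receptor (log2 -1.13 and 0.73), Rac2, a GTPase of the phagocyte oxidase and cytoskeleton (-0.49 and 0.39), Arpc3, a subunit of the actin-branching complex (-0.43 and 0.38), and Mcu, the mitochondrial calcium channel (-1.05 and 0.50). The other 6 were higher in monocytes and lower in the lung, among them Cd72, a B cell surface receptor (2.60 and -1.43), and Xcr1, a chemokine receptor of dendritic cells (1.30 and -1.02). These genes were picked after their values were seen and, Capn1 apart, their difference did not pass the adjusted threshold in edgeR. Samples of the genotypes lay fully apart in opposite order for Capn1, Irf2bp2 and Pym1 (0.025% of 11984 genes, below WT in monocytes and above WT in the lung) and for B230354K17Rik (0.00834%, the reverse).

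Across the 11984 genes the log2 effects in the 2 cell types were nearly unrelated (Pearson r = 0.031, Spearman rho = -0.034), and 48.4% of genes had the same sign. These values describe genes of the same 18 libraries, which are not independent of each other. With the shared genes described next and the T cell, NK cell and GIMAP lists left out, r was -0.070.

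**Figure D2:**
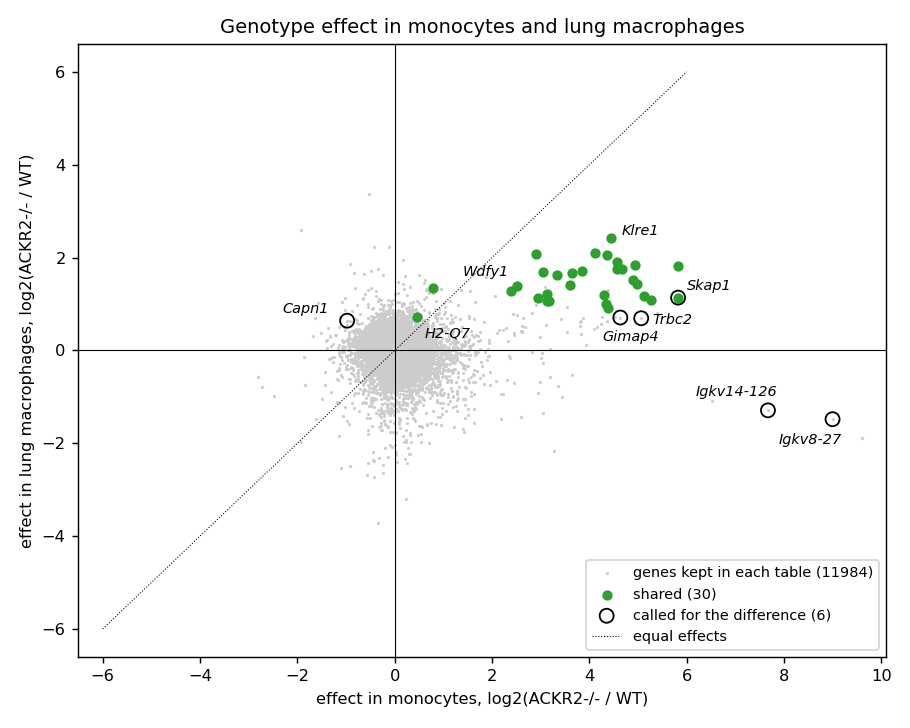
Log2 effect of ACKR2 loss in monocytes (horizontal axis) and in lung macrophages (vertical axis) for the 11984 genes with enough reads in each table. Green points are the 30 shared genes, circles the 6 genes called for the difference, and the dotted line marks equal effects; the shared genes lie to the right of 0 and mostly below the dotted line, and the cloud of other genes has no slope.

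Nearly all called changes of the average were increases. Averaged over monocytes and lung macrophages, 73 genes rose in ACKR2-/- samples (0.419% of tested genes) and 1 fell (0.00574%), namely Crkl, which encodes a signalling adaptor (log2 effects of -1.05 in monocytes and 0.05 in the lung, edgeR adjusted p of the average = 0.0357). In monocytes by themselves 64 genes rose (0.367%) and 5 fell (0.0287%), and in lung macrophages 1 gene rose (0.00574%), which was Wdfy1, and 0 fell (0%). In edgeR, 463 genes were lower in ACKR2-/- lung macrophages at an unadjusted p under 0.05, and DESeq2 called 17 as lower. The 5 genes that fell in monocytes were Capn1, Crkl, Mcu, Eml2 and Sacm1l.

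A shared response was recorded where the average was called, both effects had the same sign, each had an unadjusted p under 0.05 and the gene had enough reads in each table. There were 30 such genes (0.25% of 11984), all higher in ACKR2-/- samples. In edgeR 5 genes were lower in both cell types at an unadjusted p under 0.05 without meeting the rule, and DESeq2 gave 2 lower genes by the same rule. Of the 30, 7 belong to the T cell list and 5 to the NK cell list described below. In monocytes 25 of the 30 were called on their own and in lung macrophages 1.

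Wdfy1 encodes a protein of early endosomes that recruits the adaptor of the Toll-like receptors TLR3 and TLR4, and lies on chromosome 1 (79702262 to 79776143, minus strand). In WT monocytes it measured 9.75, 13, 12.7 and 9.46 CPM and in ACKR2-/- monocytes 74.9, 67.9, 58.7 and 55.3 CPM. In lung macrophages the values were 8.4, 14.5, 9.86, 12 and 14.2 CPM in WT and 39.3, 31.1, 24.9, 32.9 and 25.2 CPM in ACKR2-/- samples. The genotypes were fully apart in both cell types, and the WT level was alike in both. The log2 effect was 2.52 ± 0.21 in monocytes (edgeR adjusted p = 9.37e-06) and 1.38 ± 0.18 in the lung (adjusted p = 0.00925), and the average was 1.95 ± 0.14 (adjusted p = 6.44e-07). The effect was larger by 1.14 ± 0.27 in monocytes, which did not pass the threshold after adjustment (unadjusted p = 0.00054, adjusted p = 0.225). In small peritoneal macrophages, the third cell type of the series, its log2 effect was -0.18 (adjusted p = 0.931). The average for Wdfy1 was called in every one of the 14 alternative analyses and with each of the 18 samples left out. Mrpl44 and Gm10555 lie within its interval on the opposite strand, so a part of its reads may be theirs.

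H2-Q7, a nonclassical MHC class I gene with near-identical neighbours, was shared with smaller effects. It measured 23.6 to 31.3 CPM in WT and 32.8 to 41.9 CPM in ACKR2-/- monocytes, and 47.6 to 75.1 CPM in WT and 91.4 to 118 CPM in ACKR2-/- lung macrophages. Neither cell type showed overlap. The average log2 effect was 0.59 ± 0.10 (edgeR adjusted p = 0.00861).

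The 7 shared genes of the T cell list and other shared genes with a known role at the T cell receptor come next, grouped after their values were seen. Cd3d, a subunit of the receptor complex, measured 0.524, 0.879, 0.953 and 0.616 CPM in WT and 15.8, 14.2, 15 and 17.7 CPM in ACKR2-/- monocytes. In lung macrophages it ranged from 7.02 to 24.9 CPM in WT and from 5.34 to 61 CPM in ACKR2-/- samples, so only the monocytes were fully apart. Lck, the kinase that phosphorylates the complex, measured 0.565 to 1.11 CPM in WT and 10.2 to 19.6 CPM in ACKR2-/- monocytes, and 25.2 to 62.9 against 24 to 172 CPM in the lung. The average log2 effect was 2.64 ± 0.35 for Cd3d (edgeR adjusted p = 0.000788) and 2.75 ± 0.33 for Lck (adjusted p = 0.000316). Trbc1, Cd247, Zap70, Lat, Txk, Sh2d1a and Sh2d2a, which encode the beta chain, the zeta chain, kinases and adaptors, also met the rule, with average log2 effects from 2.12 for Lat to 3.38 for Txk.

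Receptors and effectors of NK cells and cytotoxic T cells formed the next group. Il2rb, the beta chain of the receptors for IL-2 and IL-15, measured 0.168 to 0.69 CPM in WT and 5.49 to 11.7 CPM in ACKR2-/- monocytes, and 72.5, 59.2, 21.6, 60 and 70.7 CPM in WT and 412, 324, 150, 78.8 and 106 CPM in ACKR2-/- lung samples. Klre1, a lectin-like NK cell receptor, measured 0 to 0.168 and 1.29 to 2.48 CPM in the 2 groups of monocytes and 7.09 to 15.1 and 17.4 to 110 CPM in those of the lung. Both genes were fully apart in both cell types. Ctsw, a cathepsin of cytotoxic lymphocytes, overlapped in the lung, with 16.9 to 64.1 CPM in WT and 32.6 to 181 CPM in ACKR2-/- samples, and its average log2 effect was 3.20 ± 0.37 (edgeR adjusted p = 0.000316). Klrd1, Klrc1, Klra1, Klra7 and Cd160 (receptors), Tbx21 (a transcription factor) and Xcl1 (a chemokine) were shared as well. Shared genes beyond the 10 with the smallest p that are in no list described were named after their values were seen.

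Ccl5, which encodes a chemokine that ACKR2 binds, was at 2.81, 1.82, 0.953 and 1.57 CPM in WT monocytes and at 9.56, 9.59, 16.1 and 18 CPM in ACKR2-/- monocytes. In lung macrophages it was at 138, 67.6, 99.3, 137 and 131 CPM in WT and at 828, 845, 321, 128 and 296 CPM in ACKR2-/- samples. The genotypes were apart in monocytes, and in the lung ACKR2-/- replicate 4 fell within the WT range. Its log2 effect was 2.90 ± 0.52 in monocytes and 2.08 ± 0.42 in the lung, which is the most alike pair among the 10 shared genes with the smallest p of the average (difference 0.82 ± 0.64, edgeR adjusted p = 0.873). T and NK cells transcribe Ccl5 at high levels, and the T and NK cell lists given below had positive median log2 effects in both cell types. The summed level of the NK cell list did not separate the genotypes in monocytes (640 to 1198 CPM in WT, 420 to 1578 CPM in ACKR2-/- samples). The part of lymphocyte transcripts in the Ccl5 increase was not tested.

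Over the 30 shared genes the median log2 effect was 4.20 in monocytes and 1.42 in lung macrophages, and 28 of the 30 had the larger log2 effect in monocytes. The median increment was 3.06 CPM in monocytes and 22.5 CPM in lung macrophages, however, and 27 of the 30 had the larger increment in the lung. The WT level was higher in lung macrophages than in monocytes for 29 of the 30. In monocytes all 30 were without overlap (4.54% of tested genes lay above WT without overlap there), and in the lung 5 were (0.264% of tested genes), namely Wdfy1, Il2rb, Klre1, Ms4a4b and H2-Q7. In both cell types together 7 genes lay above WT without overlap (0.0584% of 11984), these 5 and AW112010 and Ufd1. The rule chose the shared genes by these same contrasts, so the counts describe them and test nothing.

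**Figure D3:**
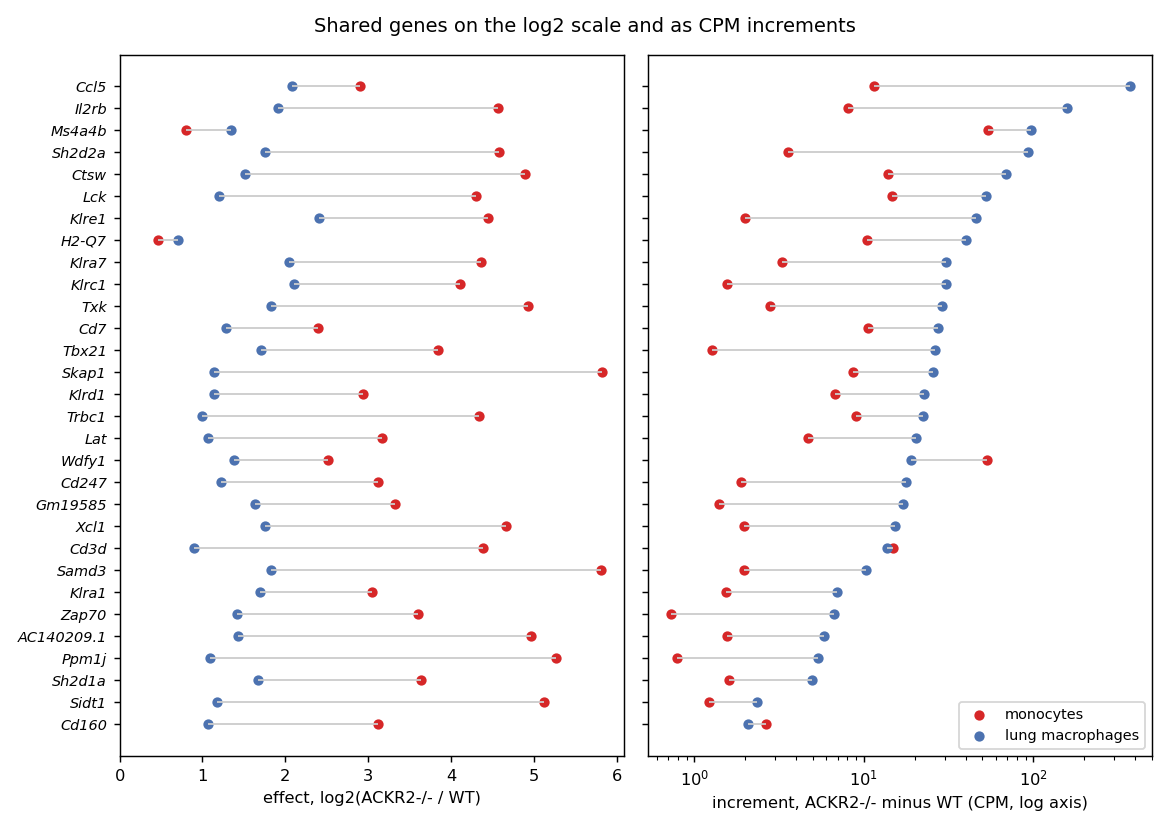
The 30 shared genes, with the log2 effect of ACKR2 loss on the left and the increment in mean CPM (ACKR2-/- minus WT, log axis) on the right, red for monocytes (4 samples per genotype) and blue for lung macrophages (5 per genotype). Red lies to the right of blue for 28 genes on the log2 scale and to the left of blue for 27 genes in CPM.

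Sequences upstream of 4 genes are shown because T cell and GIMAP genes moved together and Capn1 moved in opposite directions. Lck and Cd3d are shared genes, whereas Gimap4 and Capn1 were called for the difference. Each is the 250 bases before a start site in RefSeq (GRCm38.p6), written 5′ to 3′ on the strand of the gene. Capitals mark matches on either strand to GGAAGT (bound by ETS factors), TGTGGT (bound by RUNX factors), GGGCGG (the GC box) or TATAAA (the TATA box). Lck lies at chr4:129573642-129573891 (minus strand), Cd3d at chr9:44981536-44981785 (plus strand), Gimap4 at chr6:48684328-48684577 (plus strand) and Capn1 at chr19:6015826-6016075 (minus strand).
Lck: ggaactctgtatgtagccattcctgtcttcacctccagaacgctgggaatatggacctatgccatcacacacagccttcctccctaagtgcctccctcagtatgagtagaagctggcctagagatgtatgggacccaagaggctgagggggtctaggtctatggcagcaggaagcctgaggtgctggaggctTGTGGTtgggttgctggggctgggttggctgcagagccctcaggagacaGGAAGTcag
Cd3d: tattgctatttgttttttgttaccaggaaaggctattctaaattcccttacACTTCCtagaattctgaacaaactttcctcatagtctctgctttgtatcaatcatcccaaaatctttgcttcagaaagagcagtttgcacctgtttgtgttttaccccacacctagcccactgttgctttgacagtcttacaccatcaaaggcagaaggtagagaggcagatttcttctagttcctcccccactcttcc
Gimap4: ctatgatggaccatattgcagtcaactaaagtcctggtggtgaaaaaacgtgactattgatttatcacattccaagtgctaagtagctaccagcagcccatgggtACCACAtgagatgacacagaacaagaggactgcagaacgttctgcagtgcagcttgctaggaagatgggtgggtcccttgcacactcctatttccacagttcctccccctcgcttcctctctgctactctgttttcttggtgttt
Capn1: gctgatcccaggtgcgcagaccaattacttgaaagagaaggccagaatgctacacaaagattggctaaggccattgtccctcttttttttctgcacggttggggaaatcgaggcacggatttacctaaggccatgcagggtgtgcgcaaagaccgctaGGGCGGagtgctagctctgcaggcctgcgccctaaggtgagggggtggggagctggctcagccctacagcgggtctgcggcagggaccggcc
The Lck window shown held GGAAGT and TGTGGT once each, Cd3d held GGAAGT, Gimap4 held TGTGGT, and the Capn1 window shown held GGGCGG. Another Lck window (chr4:129558373-129558622), not shown, held GGAAGT and GGGCGG but not TGTGGT. Another Capn1 window (chr19:6015248-6015497), not shown, held GGGCGG. Of 32851 upstream windows of this length, 19.7% held GGAAGT, 14% TGTGGT, 32.7% GGGCGG and 12.4% TATAAA. Among the 30 shared genes 19 were in the RefSeq table, and of these 12 held GGAAGT, 9 TGTGGT, 4 GGGCGG and 3 TATAAA in at least 1 of their windows. Genes can have several windows, so these counts per gene cannot be set against the shares per window. A match to 6 letters is not a site of binding.

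Gene lists gave the same split. Of 23 tested T cell genes, 16 rose on average over both cell types, 16 rose in monocytes, 0 passed the threshold in lung macrophages and 2 (Skap1 and Trbc2) had a called difference. Over all tested genes, 0.419% were called higher on average, 0.367% in monocytes, 0.00574% in lung macrophages and 0.0287% for the difference. In lung macrophages 22 of the 23 had a positive log2 effect, and the median effect was 3.80 in monocytes and 0.80 in the lung, against medians over all tested genes of 0 in each. The summed level of the list was 9.69 to 12.7 CPM in WT and 107 to 194 CPM in ACKR2-/- monocytes. In WT lung macrophages it was 658, 353, 487, 368 and 196 CPM and in ACKR2-/- lung macrophages 1083, 974, 528, 179 and 797 CPM. The genotypes were apart in monocytes and overlapped in the lung, where ACKR2-/- replicate 4 had the lowest sum of all 10 samples and the library labelled WT replicate 5 the next lowest. These were also the 2 libraries with the lowest levels of epithelial, fibroblast and endothelial genes, whose part in the result was not tested. The median lung effect of the list was 1.02 without the first and 0.55 without the second. Cd3e, which defines the lineage, had 0.0654, 0.188, 0 and 0.056 CPM in WT monocytes, at or below 3 reads per sample, and 3.51, 1.75, 3.01 and 5.37 CPM in ACKR2-/- monocytes. Neither gate, as the methods describe it, used a T or NK cell marker. Whether such transcripts came from more lymphocytes in the sort or from more RNA per cell cannot be told apart in bulk samples.

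Of 13 tested genes of the NK cell and cytotoxic list, 8 rose on average and 6 in monocytes, among them Il2rb, Klre1 and Eomes. Over all tested genes these shares were 0.419% and 0.367%. Gzma and Prf1, which encode a granzyme and perforin, were called on average alone (edgeR adjusted p = 0.0357 and 0.0373). The median log2 effect was 3.93 in monocytes and 1.91 in lung macrophages. With genes that had no read in WT monocytes set to the bound of 3 reads over the group, the monocyte median was 3.84. The summed level was 639, 405, 335, 681 and 613 CPM in WT lung samples and 3585, 3915, 1564, 673 and 1201 CPM in ACKR2-/- ones, again with replicate 4 lowest. In monocytes the sum was 640 to 1198 CPM in WT and 420 to 1578 CPM in ACKR2-/- samples, and overlapped. Most of it was Nkg7, a granule protein gene with mean levels of 862 and 798 CPM in WT and ACKR2-/- monocytes, whose log2 effect of -0.11 went against the rest of the list there. Nkg7 had a log2 effect of 2.23 in the lung (edgeR adjusted p = 0.259).

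Of the 8 GIMAP genes, 7 rose on average and in monocytes (0.419% and 0.367% of all tested genes), and Gimap4 had a called difference. All 8 had positive effects in both cell types, with medians of 4.10 (3.96 at the bound) in monocytes and 0.67 in the lung. Their summed level was 8.18 to 12 CPM in WT and 58.1 to 91.1 CPM in ACKR2-/- monocytes, and 198 to 692 against 152 to 1055 CPM in lung macrophages.

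**Figure D4:**
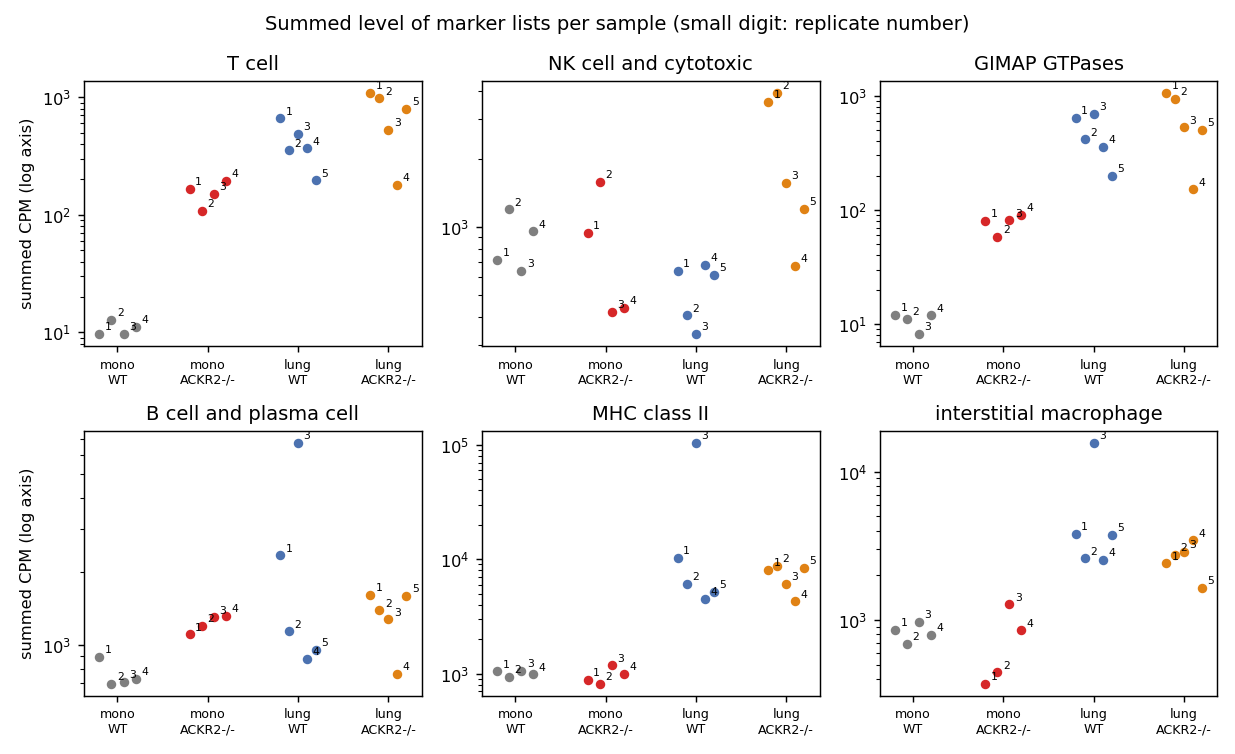
Summed CPM of 6 gene lists per sample on log axes, with the replicate number beside each point, for WT and ACKR2-/- monocytes (4 samples each) and lung macrophages (5 each). The T cell and GIMAP sums separate the genotypes in monocytes and overlap in the lung, and lung WT replicate 3 is highest for the B cell, MHC class II and interstitial macrophage lists.

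B cell genes pointed in opposite directions in the 2 cell types without a called member. All 12 had a positive log2 effect in monocytes and a negative one in lung macrophages, with medians of 1.64 and -0.80. The summed level was 695 to 897 CPM in WT and 1106 to 1320 CPM in ACKR2-/- monocytes. In the lung it was 877 to 6734 CPM in WT and 762 to 1604 CPM in ACKR2-/- samples, where lung WT replicate 3 set the highest value. With that library left out, 5 of the 12 genes were negative in the lung and the median was 0.05. The 2 Igkv segments called for the difference were not members of the list, and the part of B lineage transcripts in their result was not tested.

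MHC class II genes moved likewise with that library. All 8 were lower in ACKR2-/- lung macrophages, with a median log2 effect of -2.04 against 0.04 in monocytes, and 0 were called (edgeR, 2 with a difference at an unadjusted p under 0.05). Without lung WT replicate 3 the median in the lung was 0.14 and 1 of the 8 was lower. The interstitial macrophage list, with C1qa, Mrc1 and Folr2, had a median of -1.35 in the lung and -0.56 in monocytes, and -0.44 in the lung without that library. Among dendritic cell genes Siglech, a receptor of plasmacytoid dendritic cells, rose in monocytes (log2 2.95, edgeR adjusted p = 0.0401) and had an effect of -0.93 in the lung, which was -0.32 without lung WT replicate 3. The dendritic cell list had a median of 1.24 in monocytes and -0.75 in the lung, where all 8 tested genes were negative, and without that library the lung median was -0.09 and 5 of the 8 were negative.

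In 23 of the 30 lists no gene was called in either cell type, on average or for the difference. These lists held 278 tested genes, of which 20 had an unadjusted p under 0.05 for the difference in edgeR and 34 for the average. These are 7.19% and 12.2% of the 278, against 6.35% (1107) and 5.97% (1040) of all tested genes. DESeq2 called 1 for the difference and 2 for the average. They included interferon-stimulated genes (median log2 effects of -0.18 in monocytes and 0.05 in the lung), cell cycle genes (-0.18 and -0.32), immediate early genes (-0.17 and -0.37), inflammatory cytokines (-0.45 and -0.80), members of the TGF-beta pathway (-0.10 and -0.14) and NF-kB genes (-0.09 and -0.08). Without lung WT replicate 3 the lung median of the cell cycle list was 0.23, with 3 of its 20 genes negative in place of 16, and that of the inflammatory cytokines was -0.24. Of the inflammatory CC chemokines Ccl5 was called and of the chemokine receptors Cxcr6, a receptor of tissue T and NK cells, which rose in monocytes (log2 3.83, edgeR adjusted p = 0.0119). Wdfy1 was the called member among 12 genes of endosomal Toll-like receptor signalling, whose medians were -0.33 and 0.01.

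**Figure D5:**
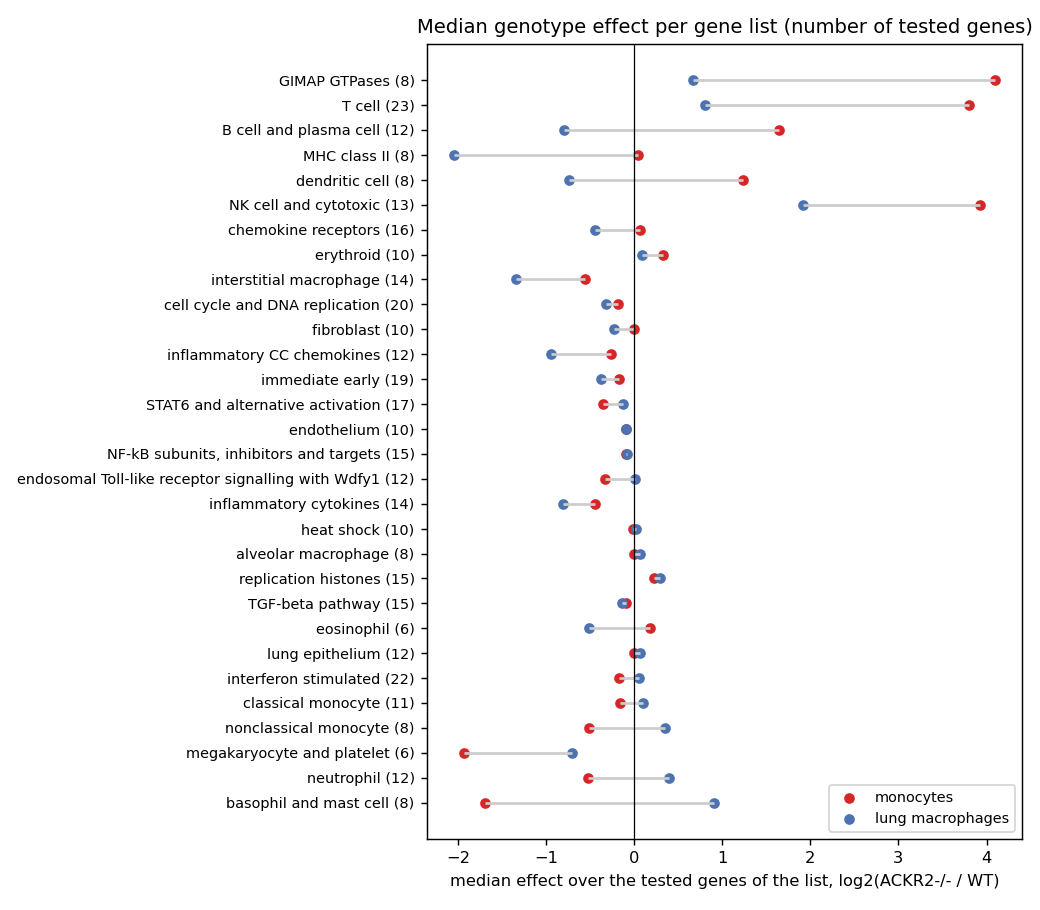
Median log2 effect of ACKR2 loss over the tested genes of 30 gene lists, red for monocytes and blue for lung macrophages, ordered by the median difference, with the number of tested genes in brackets. The GIMAP, T cell and NK cell lists are positive in both cell types, and the B cell and dendritic cell lists are positive in monocytes and negative in the lung. The MHC class II list is near 0 in monocytes (0.04) and negative in the lung. Without lung WT replicate 3 the lung medians of the B cell, dendritic cell and MHC class II lists were 0.05, -0.09 and 0.14.

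For genes that the study follows elsewhere, no difference in response was called in edgeR after adjustment over all tested genes. A missing call does not show that the effects were equal. For Cxcr4 the unadjusted edgeR p of the difference was under 0.05. Tgfb1, a growth factor of alternative activation, measured 41.7, 51.6, 51.2 and 40.1 CPM in WT and 24.3, 18.9, 35.4 and 26.6 CPM in ACKR2-/- monocytes, without overlap. In the lung it ranged from 64.5 to 186 CPM in WT and from 96.2 to 221 CPM in ACKR2-/- samples. Its log2 effects were -0.81 ± 0.29 and 0.19 ± 0.26, and their difference of -0.9988 ± 0.39 had an edgeR adjusted p of 0.629.

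Alox15, a lipoxygenase of alternatively activated cells and eosinophils, measured 3.4, 1.95, 2.47 and 3.3 CPM in WT and 0.27, 0.117, 0.211 and 0.957 CPM in ACKR2-/- monocytes. In lung macrophages it varied from 0 to 45.8 CPM among WT and from 2.39 to 23.8 CPM among ACKR2-/- samples. Monocytes were without overlap, and the lung samples of 1 genotype spread more than the genotypes differed. The difference of the log2 effects was -2.23 ± 1.71 (edgeR adjusted p = 0.872).

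Cxcr4, the receptor that holds monocytes in the bone marrow, measured 20.4 to 25.7 CPM in WT and 15.2 to 18.7 CPM in ACKR2-/- monocytes, and 53.6 to 143 CPM in WT and 107 to 207 CPM in ACKR2-/- lung macrophages. Its effects had opposite signs, -0.45 ± 0.26 and 0.57 ± 0.23, with a difference of -1.02 ± 0.34 (edgeR unadjusted p = 0.00814, adjusted p = 0.541). Stat6 had effects of -0.34 ± 0.18 and 0.02 ± 0.16 and Nfkb1 of 0.03 ± 0.23 and 0.00 ± 0.21. Ccr2, the receptor for CCL2, had effects of -0.15 ± 0.65 in monocytes and -0.83 ± 0.59 in the lung, and Mrc1, the mannose receptor, of -0.57 ± 0.62 and -1.47 ± 0.51. For the last 2 genes lung WT replicate 3 held 353 and 167 CPM against 24.1 to 33.9 and 25.3 to 34.6 CPM in the other WT lung samples. Without it the difference for Ccr2 went from 0.68 to -0.97 and that for Mrc1 from 0.90 to -0.09. Nnt, a mitochondrial gene that differs between C57BL/6 substrains, was at or below 2.92 CPM in every sample, and its difference was 1.04 ± 1.03 (edgeR adjusted p = 0.91).

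Positions of the called genes were compared with that of the deleted gene. Within 10 Mb of Ackr2 lay 115 of the 17428 tested genes (0.66%), 0 of the 6 genes called for the difference, 0 of the 30 shared genes, 3 of the 74 called for the average and 4 of the 69 called in monocytes. The last 4 were Sacm1l, Cxcr6, Gadl1 and Eomes, named here after their values were seen. Gadl1 had 0 reads in WT and 56 reads in ACKR2-/- monocytes, at least 17.0-fold higher against 3 reads over the group.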

How the data were processed

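RNA of FACS sorted cells was amplified by the SMARTer method and sequenced. Per cell type, 1 table of unnormalized gene counts was deposited; the submitters' processing notes name HISAT2 2.0.5, featureCounts 1.5.0-p3 and mm10. The lung table ends with 5 summary lines in the style of HTSeq-count (56.3% of its counts), which were removed. Shared identifiers (50104) were filtered with filterByExpr (minimum count 10, minimum total 15), scaled by TMM and fitted as 4 groups with the quasi-likelihood test of edgeR 4.0.16 in R 4.3.3, with Benjamini-Hochberg adjustment over 17428 genes. SE is the absolute log2 value divided by the square root of F. CPM uses tested genes and TMM factors. Levels set across cell types come from tables that were counted separately.

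The genes named were all those called for the difference, shared genes with the smallest p, opposite genes, genes the study follows, list members and markers. The members and lists were chosen with earlier results of these data known. Alternatives were DESeq2 1.42.0, limma 3.58.1 (voom, with quality weights, and per table), RLE factors, TMM within tables, other filters, no log2 threshold, a robust fit, all 26 samples, samples left out and a replicate block. The steps were tested on simulated data. No 2 replicates were alike within counting noise (chi-square over its degrees of freedom was 11.0 or more). As the mice behind each lung sample are not given, p-values measure the spread between these samples. Intervals and the level of 3 reads cover counting error only.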

Additional observations from a re-analysis of the deposited data

Results flagged for a closer look

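In 17 of 136 groups of 4 or 5 samples, 1 sample lay far from the others by Dixon's criterion, where chance gives about 1 in 20. WT lung replicate 3 accounted for 8 of them. It was highest for Ccr2 (353 CPM), Mrc1 (167 CPM), H2-Ab1 (22259 CPM) and C1qa (2880 CPM), and for the summed B cell (6734 CPM), MHC class II (104225 CPM) and interstitial macrophage lists (15656 CPM), and lowest for Il2rb (21.6 CPM).

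ACKR2-/- monocyte replicate 2 was lowest of its group for Skap1 (4.85 CPM) and Gimap4 (14.0 CPM), still above every WT monocyte sample. ACKR2-/- monocyte replicate 3 was highest for Nfkb1 (116 CPM), replicate 1 for C1qa (1.998 CPM), and ACKR2-/- lung replicate 2 for Igkv14-126 (4.10 CPM). WT monocyte replicate 1 was highest for the summed B cell list (897 CPM). In 3 groups the distant sample was the only one with a read, namely WT monocyte replicate 3 for Igkv8-27 (0.056 CPM) and Ackr2 (0.112 CPM) and WT monocyte replicate 1 for Sftpc (0.0654 CPM).

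The genotype effect differed between monocytes and lung macrophages by the test of the difference itself (edgeR, adjusted p under 0.05) for Igkv14-126 (log2 difference 8.96), Igkv8-27 (10.48), Skap1 (4.69), Trbc2 (4.37), Gimap4 (3.93) and Capn1 (-1.62).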

How the results depend on the processing

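Counts of called genes depended on the tool, and the cause of each shift was not tested. The directions of the 6 genes called for the difference and of the 10 leading shared genes held under all alternatives. These genes were chosen by their effects in the same samples, so the kept directions test nothing. For the 6 genes, the call was lost in 2 (Skap1 and Trbc2) to 6 (Capn1) of the 14 alternatives, single samples left out aside. With edgeR 6 genes were called for the difference, 74 for the average, 69 in monocytes, 1 in lung macrophages, 30 as shared and 1 as opposite. DESeq2 gave 91, 138, 186 and 47 for the first 4 and 11 opposite genes; of its 91, 72 were higher and 31 had 10 or fewer reads in WT monocytes. limma-voom gave 0, 1 and 2 for the difference, the average and monocytes, 1 shared and 0 opposite genes, and 0 called members on average in each of the T cell, NK cell and GIMAP lists. With sample quality weights these were 761 (381 higher), 364, 1298 and, in the lung, 190, with 132 shared and 286 opposite genes. Separate limma-voom fits gave 11 for the difference, 104 in monocytes and 0 in the lung. Without a filter 19 genes were called for the difference, 4 in the lung and 0 as opposite; with all 26 samples 27 for the difference and 112 in monocytes. RLE factors gave 0 opposite genes. Leaving out WT lung replicate 3 and the library labelled WT lung replicate 5 together gave 0 in the lung and 0 opposite. With genes kept in each table alone, 5 members of the NK cell list were called on average.

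With 1 sample left out, the counts ranged from 0 to 15 for the difference, 50 to 110 for the average, 39 to 98 in monocytes, 1 to 9 in the lung, 21 to 58 shared and 0 to 3 opposite, and on average 13 to 21 in the T cell, 6 to 8 in the NK cell and 6 to 7 in the GIMAP list. For the targeted gene Ackr2, exact permutation p in lung macrophages ranged from 0.00794 to 0.0794, and was above 0.05 without any 1 of the ACKR2-/- lung samples.

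The replicate numbers did not pair the samples: correlations of deviations within a number were -0.08, 0.18, 0.02 and -0.02 in monocytes and 0.60, 0.06, -0.06, -0.03 and 0.24 in the lung. With a replicate block 0 genes were called for the difference, 41 for the average (35 of the 74 among them), 38 in monocytes, 0 in the lung and 0 as opposite, and 3 members of the NK cell list. The difference for Ccr2 under the block was -0.47.

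Ccr2 (0.68) turned to -0.34 in limma-voom, -0.85 with quality weights, -0.33 in separate fits, -0.98 without both of these libraries, and -0.97 without replicate 3; with 1 sample left out it ranged from -0.97 to 0.93. Mrc1 (0.90) turned to -0.37 with quality weights, -0.035 without both and -0.092 without replicate 3; with 1 sample left out it ranged from -0.092 to 1.19. Nfkb1 (0.04) turned to -0.05 without ACKR2-/- monocyte replicate 3, WT lung replicate 4 or the library labelled WT lung replicate 5, and to -0.068 and -0.038 without ACKR2-/- lung replicates 1 and 2, and ranged from -0.068 to 0.28. At 3 reads, levels under 0.196 CPM in monocytes and 0.162 CPM in the lung were not resolved.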
